A study of Mus musculus with 8 samples.

Results

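The expression of 9 genes of membrane excitability was followed across the cell types of mouse pancreatic islets, in control mice and after partial pancreatectomy (PPTx). The 9 genes are Abcc8 and Kcnj11, which encode the regulatory and pore subunits of the ATP-sensitive potassium (KATP) channel, Cacna1a, Cacna1c and Cacna1d, pore subunits of voltage-gated calcium channels, Kcnk16 and Kcnk3, 2-pore-domain potassium channels, Scn9a, a voltage-gated sodium channel, and Atp2a2. They were chosen by name from the 24421 genes counted in every sample, by a rule that sets no threshold on a measured value. Earlier results of these data were known when these genes were chosen. Atp2a2 encodes SERCA2, which pumps calcium from the cytosol into the endoplasmic reticulum, and is thus not a channel of the plasma membrane. All mice were 8-week-old C57BL/6J. The 4 control samples came from mice without an operation, so the control includes no sham surgery. The 4 PPTx samples came from mice that had 50% of the pancreas removed 2 days before the islets were isolated. Each sample pooled the islets of 1 to 3 mice, so p-values measure the spread between these pools. Single cells were captured in droplets and counted by unique molecular identifiers (UMIs), which mark single captured transcripts.

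In the β-cell, glucose metabolism raises ATP, ATP closes the KATP channel, the membrane depolarizes, and voltage-gated calcium channels open. The calcium that enters triggers the release of insulin granules, and SERCA pumps return calcium to the endoplasmic reticulum. KATP channels also set the membrane potential of other islet endocrine cells, and 2-pore-domain potassium channels carry background potassium current.

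The 9 genes had 9628 UMIs in the 1232 cells that passed the cell filter, of 1240 in all. Total counts in the tables ranged from 236645 to 1580152 UMIs per sample. A cell was assigned by the hormone with the most UMIs when that hormone had at least 2 times the UMIs of the next, which gave 952 β-like (Ins1 and Ins2), 130 PP-like (Ppy), 114 α-like (Gcg), 13 δ-like (Sst) and 1 ε-like (Ghrl) cell, and 22 cells of mixed hormones. β-like cells numbered 54 to 236 per sample. Of the α-like cells, 95 were from control and 19 from PPTx samples, and of the PP-like cells 32 and 98. Sums per sample and type were compared only where they held at least 5 cells, that is 8 samples for β-like, 6 (4 control, 2 PPTx) for α-like and 7 (3 control, 4 PPTx) for PP-like cells. No sample held 5 δ-like cells. One barcode occurred in 2 samples. The median depth was 6055 UMIs in β-like, 3963 in α-like and 5206 in PP-like cells.

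Markers other than the hormones went with the labels for the most part. Ucn3 stood at 531 CPM (UMIs of a gene per 1000000 UMIs of the pooled cells) in β-like, 10.3 CPM in α-like and 6.78 CPM in PP-like cells. Irx2 stood at 191 CPM in α-like, 28.5 CPM in PP-like and 0.785 CPM in β-like cells. Tspan8 stood at 660 CPM in PP-like, 30.9 CPM in α-like and 25.6 CPM in β-like cells. Mafa, a defining transcription factor of mature β-cells, was near absent with 2 UMIs in β-like cells. The α-like cells held Ppy at 15852 CPM and Pyy at 20668 CPM, so the α-like and PP-like groups are not fully apart. Ppy was at 3.28% of its PP-like level in α-like cells, and stood at 53276 CPM in the 13 δ-like cells. Ins1 and Ins2 in α-like cells were at 1.48% of their level in β-like cells, and Gcg in β-like cells was at 0.125% of its level in α-like cells. Summed acinar, ductal, endothelial, immune and stellate marker lists stayed at or under 456 CPM in every sum.

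All 9 genes are protein-coding and their positions were taken from RefSeq on GRCm38, the build of the counts. Kcnj11 (7:46097123-46100952) and Abcc8 (7:46104523-46180039) are neighbours with 3570 bases between them. The calcium channel genes are Cacna1a (8:84338631-84640251), Cacna1c (6:118587240-119197384) and Cacna1d (14:30039941-30491156). The others are Kcnk16 (14:20261375-20269269), Kcnk3 (5:30588170-30625270), Scn9a (2:66480080-66635114) and Atp2a2 (5:122453513-122502225). Dcp1b, which overlaps the Cacna1c locus, had 52 UMIs in the tables, and Dcp1a, which overlaps the Cacna1d locus, had 69 UMIs. Whether counting used the strand is not given in the sources used here, so reads in these overlaps could not be assigned to 1 gene with certainty.

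Hormone transcripts took 58.6% of the UMIs in β-like, 46.3% in α-like and 49.9% in PP-like cells, and they are part of the total behind every CPM. The fitted fold changes between cell types below use TMM scaling instead, which sets most genes equal between types, so a CPM ratio and a fitted fold differ for the same gene.

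**Figure D1:**
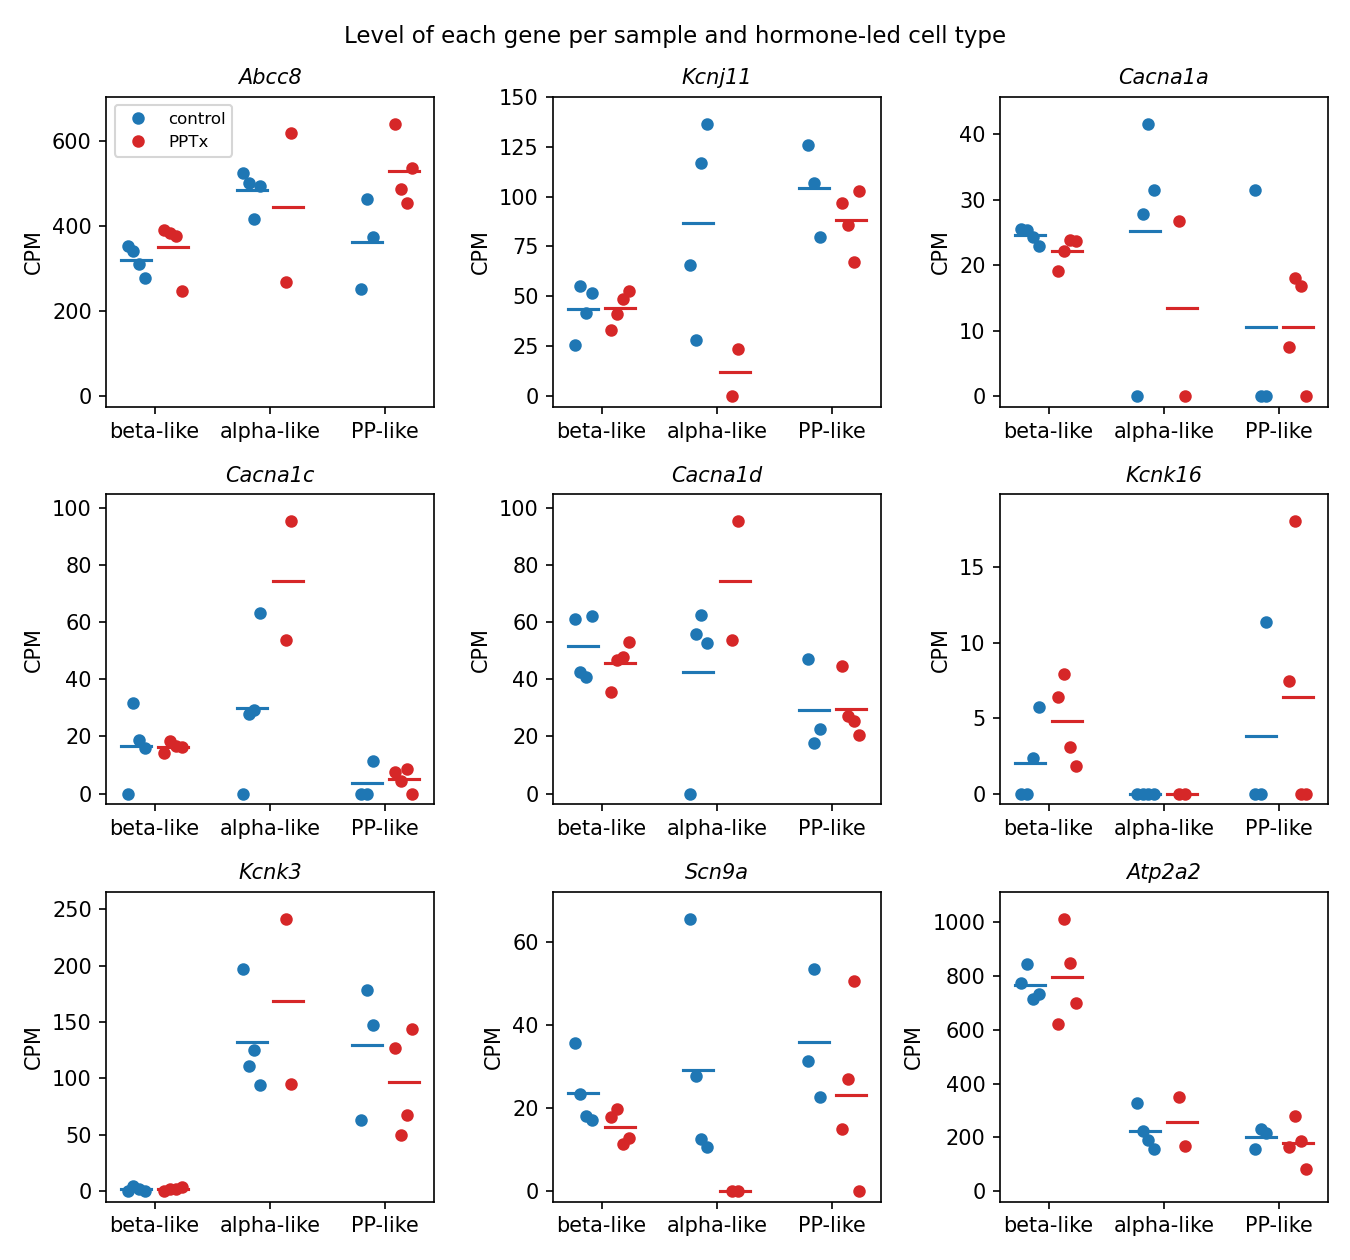
Level of each gene (CPM, linear axis, each panel with its own scale) in β-like, α-like and PP-like cells, with 1 point per sample sum of at least 5 cells, in blue for control and red for PPTx, and a line at the group mean. Atp2a2 lay at 622 CPM or above in all 8 β-like sums and at 349 CPM or below in all others, and Kcnk3 lay at 4.24 CPM or below in β-like sums and at 49.7 CPM or above in all others.

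The 2 genes with the clearest differences between cell types were Atp2a2, higher in β-like cells, and Kcnk3, close to absent from them. In β-like cells Atp2a2 measured 775, 843, 714 and 734 CPM in the control samples and 622, 1013, 848 and 699.99 CPM in the PPTx samples. In α-like cells it measured 328, 223, 192 and 158 CPM in the 4 control samples and 349 and 167 CPM in PPTx samples 2 and 3. In PP-like cells it measured 157, 232 and 216 CPM in control samples 2, 3 and 4 and 164, 280, 185 and 82.4 CPM in the PPTx samples. The β-like sums did not overlap with those of either other type. The pooled α-like and PP-like levels were 24.6% and 25.9% of the β-like level, where Ins1 and Ins2 were at 1.48% and 1.64%. Atp2a2 was 4.92-fold higher in β-like than in α-like cells (log2 fold change 2.30, SE 0.18, adjusted p = 3.5e-35, edgeR, higher in 6 of 6 samples) and 4.09-fold higher than in PP-like cells (log2 fold change 2.03, SE 0.16, adjusted p = 1.12e-23, edgeR, higher in 7 of 7 samples). Its mean level was 236 ± 82.9 CPM (SD, n = 6) in α-like and 188 ± 63.0 CPM (SD, n = 7) in PP-like cells, and with 95 and 152 UMIs the pooled α to PP ratio was 0.948 (95% counting interval 0.726 to 1.23).

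Kcnk3, which encodes TASK-1, a potassium channel that acid closes, showed the reverse order. It measured 197, 111, 125 and 94.5 CPM in α-like cells of the control samples and 242 and 95.3 CPM in those of PPTx samples 2 and 3. In PP-like cells it measured 62.9, 178 and 148 CPM in control samples 2, 3 and 4 and 127, 49.7, 67.4 and 144 CPM in the PPTx samples. In β-like cells 3 of 8 samples had no UMI, and the highest, control sample 2, reached 4.24 CPM from 2 UMIs. Every α-like and PP-like sum was thus above every β-like sum. The fit gave a log2 fold change of -5.92 against α-like cells (SE 0.38, adjusted p = 5.15e-45, edgeR, lower in 6 of 6 samples) and -5.80 against PP-like cells (SE 0.39, adjusted p = 6.08e-30, edgeR, lower in 7 of 7 samples). From the pooled counts, 62 UMIs in α-like against 10 in β-like cells, the level was 81.2 times that of β-like cells (95% counting interval 41.3 to 178), and for PP-like cells, with 70 UMIs, 60.5 times (31.0 to 132). The α and PP levels differed by a ratio of 1.34 (0.939 to 1.92), an interval that includes equal levels.

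Kcnk3 in β-like cells was set beside the carry-over of other genes. Its pooled level there was 1.23% of that in α-like and 1.65% of that in PP-like cells. Irx2, a transcription factor of α-cells, stood in β-like cells at 0.410% of its α-like level, and Ppy at 0.308% of its PP-like level. The 10 Kcnk3 UMIs lay in 9 β-like cells from 5 samples, and these cells had a median of 7 Ppy UMIs and 2 Gcg UMIs, against 1 and 0 in the 943 β-like cells without a Kcnk3 UMI. How far cells captured together or free RNA add to these 10 UMIs was not tested.

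The KATP channel genes were measured in all 3 compared types, with the lowest mean CPM in β-like cells. Abcc8 (SUR1) measured 352, 341, 310.01 and 278 CPM in β-like cells of the control samples and 390, 384, 377 and 246 CPM in those of the PPTx samples. In α-like cells it measured 525, 501, 416 and 494 CPM in control and 268 and 619 CPM in PPTx samples 2 and 3. In PP-like cells it measured 252, 463 and 375 CPM in control samples 2, 3 and 4 and 640.2, 488, 455 and 536 CPM in the PPTx samples. In CPM, β-like cells were the lower in 5 of 6 samples against α-like and in 6 of 7 against PP-like cells, and the ranges overlapped. With TMM scaling, Abcc8 in β-like against α-like cells had a log2 fold change of -0.10 (95% interval -0.41 to 0.22, adjusted p = 0.67, edgeR). Against PP-like cells it was lower by a log2 fold change of -0.43 (SE 0.14, adjusted p = 0.00919, edgeR). That call was lost with DESeq2 (adjusted p = 0.0823), without PPTx sample 4 (adjusted p = 0.0513) and with no filter on low counts (log2 fold change -0.02, adjusted p = 0.951), where the median over all genes tested also moved by 0.39 on the log2 scale.

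Kcnj11 (Kir6.2) measured 25.5, 55.1, 41.7 and 51.7 CPM in β-like cells of the control samples and 33.1, 41.2, 48.8 and 52.9 CPM in those of the PPTx samples. In PP-like cells it measured 126, 107 and 79.5 CPM in control samples 2, 3 and 4 and 96.8, 85.8, 67.4 and 103 CPM in the PPTx samples. All 7 PP-like sums were above all 8 β-like sums. Kcnj11 was lower in β-like than in PP-like cells (log2 fold change -1.01, SE 0.25, adjusted p = 0.000434, edgeR, lower in 7 of 7 samples). This call was lost with no filter on low counts (log2 fold change -0.61, adjusted p = 0.109), under the same shift of the median. In α-like cells Kcnj11 was uneven, with 117 and 137 CPM in control samples 3 and 4, 65.7 and 27.8 CPM in control samples 1 and 2, and 0 and 23.8 CPM in PPTx samples 2 and 3, which held 0 and 1 UMI. The difference of β-like from α-like cells did not pass the test (log2 fold change -0.54, 95% interval -1.14 to 0.07, adjusted p = 0.161, edgeR). δ-like cells, with no test, held 41 UMIs of Abcc8 (994 CPM, 95% counting interval 713 to 1348) and 6 UMIs of Kcnj11 (145 CPM, 53.4 to 317) over 13 cells.

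Among the calcium channel genes, the Cacna1c level was lower in PP-like than in β-like cells, on 4 UMIs in PP-like cells. Cacna1c encodes the pore of Cav1.2, an L-type channel. It measured 31.8, 18.9 and 16.1 CPM in β-like cells of control samples 2, 3 and 4, and 14.0, 18.2, 16.6 and 16.4 CPM in those of the PPTx samples. PP-like cells of the same 7 samples held 1 UMI at most, with 0 in 3 of them, and a mean of 4.53 ± 4.69 CPM (SD, n = 7). Cacna1c was too low there for the edgeR fit. An exact two-sided sign-flip test over samples gave an unadjusted p = 0.0156, the smallest p that 7 samples allow. The level was higher in β-like cells in 7 of 7 samples, and the p was not adjusted for the other members tested. In α-like cells the mean was 44.8 ± 33.2 CPM (SD, n = 6) against 16.9 ± 10.1 CPM in β-like cells of the same samples, and the exact sign-flip p was 0.125, with 4 samples lower and 1 higher in β-like cells and 1 with no UMI in either.

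Cacna1a, the pore of the P/Q-type channel Cav2.1, measured 23.1 ± 2.03 CPM in β-like and 10.5 ± 12.1 CPM in PP-like cells (SD, n = 7). It was higher in β-like cells in 6 of 7 samples (exact sign-flip p = 0.0469, unadjusted), on 9 UMIs in PP-like cells. Without 1 of 6 samples in turn (control 3 or 4, or any PPTx sample) the exact p was between 0.0625 and 0.0938, and it was 0.0625 when the hormone margin was 5 times. Against α-like cells, at 21.3 ± 17.3 CPM, the exact p was 0.781 over 6 samples. Cacna1d, the pore of the L-type channel Cav1.3, had a log2 fold change of 0.06 against α-like cells (95% interval -0.61 to 0.74, adjusted p = 0.909, edgeR) and of 0.62 against PP-like cells (95% interval -0.05 to 1.29, adjusted p = 0.164, edgeR). With no filter on low counts the latter passed the test (log2 fold change 1.01, adjusted p = 0.0307), again under the shift of the median. The 13 δ-like cells held no UMI of Cacna1a or Cacna1d, where 3 UMIs would be 72.7 CPM.

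Scn9a, the sodium channel Nav1.7, passed no test between the types. Its level was 17.2 ± 4.05 CPM in β-like against 28.6 ± 18.9 CPM in PP-like cells (SD, n = 7, exact sign-flip p = 0.203), and 20.9 ± 8.20 CPM against 19.4 ± 24.9 CPM in α-like cells (SD, n = 6, exact sign-flip p = 0.812). Kcnk16, which encodes the β-cell potassium channel TALK-1, was barely captured, with 27 UMIs in β-like and 6 in PP-like cells. The PP-like level was 1.92 times the β-like one (95% counting interval 0.648 to 4.75). No Kcnk16 UMI was found in 114 α-like cells, where 3 UMIs would be 6.17 CPM, above the 4.24 CPM of β-like cells, so a difference was not detectable at this depth.

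In the fit of β-like against α-like cells, 2 of the 5 members tested passed (1 higher, 1 lower), beside 38.7% of all 1983 genes tested (21.5% higher, 17.2% lower). In that of β-like against PP-like cells 4 of 5 passed (1 higher, 3 lower), beside 31.2% of 2935 genes (16.3% higher, 14.9% lower). Hormone genes were left out of these counts. The median log2 fold change of the members tested was -0.10 against α-like and -0.43 against PP-like cells, beside 0.05 and 0.01 for all genes tested.

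**Figure D2:**
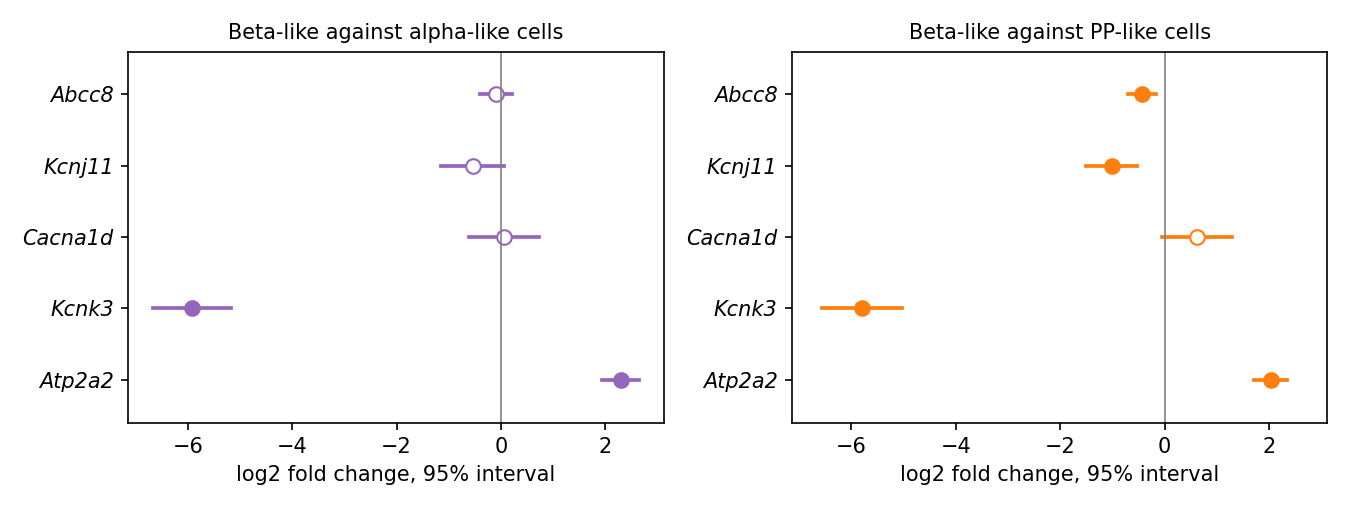
Log2 fold change of β-like over α-like cells (left) and over PP-like cells (right) for the members that could be fitted, with 95% intervals from edgeR, filled where the adjusted p is under 0.05. Atp2a2 lies at 2.30 and 2.03, Kcnk3 at -5.92 and -5.80, and Kcnj11 and Abcc8 are filled only on the right, at -1.01 and -0.43.

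Single cells were compared after each was thinned to 2700 UMIs, which left out 142 shallower cells (50 control, 92 PPTx). Among 858 thinned β-like cells, 83.3% held a UMI of Atp2a2, beside 43.0% of 93 α-like and 39.3% of 112 PP-like cells. Kcnk3 was seen in 4 of the 858 β-like cells, in 26.9% of the α-like and in 22.3% of the PP-like cells. Abcc8 was seen in 57.6%, 66.7% and 75.9%, and Kcnj11 in 11.7%, 23.7% and 23.2%. Without thinning these shares were 92.5%, 53.5% and 61.5% for Atp2a2, 0.945%, 36.8% and 36.9% for Kcnk3, 81.3%, 79.8% and 87.7% for Abcc8, and 22.9%, 31.6% and 39.2% for Kcnj11. For Abcc8 the order of β-like and α-like cells was not the same in the thinned and unthinned shares, which differ both in depth and in the cells kept. The other 5 genes were each seen in under 13% of thinned cells of any of these types. Of the 100 thinned β-like cells with a Kcnj11 UMI, 56.0% held one of Abcc8, and of the other β-like cells 57.8% did. These shares were 72.7% (of 22 cells) and 64.8% in α-like and 73.1% (of 26 cells) and 76.7% in PP-like cells, and no test was made of them. The median β-like cell showed 2 of the 9 genes, the maximum was 5, and 5.36% showed none.

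**Figure D3:**
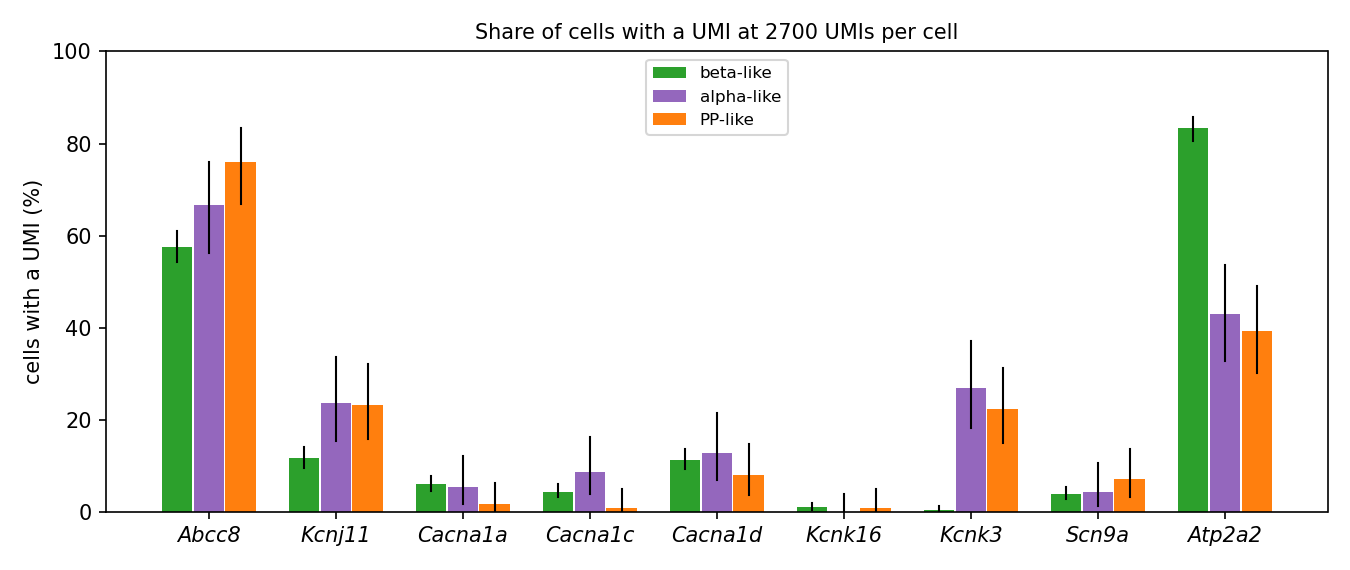
Share of cells with at least 1 UMI of each gene after thinning to 2700 UMIs per cell, for β-like (green), α-like (purple) and PP-like (orange) cells pooled over samples, with exact (Clopper-Pearson) 95% intervals that cover counting error only. Atp2a2 reaches 83.3% of β-like cells against 43.0% and 39.3%, and Kcnk3 reaches 26.9% of α-like and 22.3% of PP-like cells and 4 of 858 β-like cells.

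Other genes of excitability were taken from 8 lists with 108 genes, of which 16 could be fitted against α-like and 21 against PP-like cells. Against α-like cells 7 were higher and 1 lower in β-like cells, or 8 of 16 called beside 38.7% of all genes tested, with a median log2 fold change of 0.53 beside 0.05 for all genes. Against PP-like cells 5 were higher and 5 lower, or 10 of 21 called beside 31.2% of all genes tested, with a median of 0.02 beside 0.01. Slc2a2, the GLUT2 glucose transporter, and Trpm5, a calcium-activated cation channel, are themselves β-cell markers in the marker list used. Slc2a2 had log2 fold changes of 4.54 (SE 0.38, adjusted p = 2.49e-31) and 4.92 (SE 0.35, adjusted p = 1.46e-27) over α-like and PP-like cells. Trpm5 had 6.02 (SE 0.62) and 5.76 (SE 0.60), and was higher in β-like cells in every sample of both comparisons.

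Of 23 calcium pumps, exchangers and store channels, 4 could be fitted against α-like cells, with 2 higher and 1 lower, beside 38.7% of all genes called. Against PP-like cells 6 could be fitted, with 1 higher and 1 lower, which is close to the 31.2% of all genes called. Atp2a3, which encodes SERCA3, had log2 fold changes of 2.08 (SE 0.23, adjusted p = 6.57e-19) over α-like and 2.24 (SE 0.20, adjusted p = 2.54e-20) over PP-like cells, higher in every sample. Atp2c1, a calcium pump of the Golgi, was higher than in α-like cells by 1.54 (SE 0.42, adjusted p = 0.00115). Itpr1, an IP3 receptor that releases calcium from the endoplasmic reticulum, was lower by -3.26 (SE 0.29, adjusted p = 2.72e-28) and -2.74 (SE 0.31, adjusted p = 3.46e-14), and lower in every sample.

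Of the ion channels, transporters and their subunits, 3 more passed the test against PP-like cells, all lower in β-like cells. They were the sodium channel Scn3a (-2.99, SE 0.39, adjusted p = 6.95e-11), the chloride-proton exchanger Clcn3 (-0.92, SE 0.20, adjusted p = 8.22e-05) and the calcium channel auxiliary subunit Cacna2d1 (-0.98, SE 0.24, adjusted p = 0.000702), all as log2 fold changes from edgeR. With no filter on low counts Clcn3 and Cacna2d1 lost their calls (adjusted p = 0.101 and 0.148). Clcn3 also lost it in thinned cells (0.0581), and Cacna2d1 without PPTx sample 2 (0.0538). The regulators of the sodium pump split, with Fxyd6 higher in β-like cells in both comparisons (0.84 and 0.97) and Fxyd3 lower than in PP-like cells (-1.62, SE 0.25). Against α-like cells, Kcnmb2, an auxiliary subunit of the BK potassium channel, was higher by 1.30 (SE 0.39, adjusted p = 0.00307) and the sodium pump subunit Atp1b1 by 0.58 (adjusted p = 0.0256). The Atp1b1 call was lost with DESeq2 (0.0508), in thinned cells (0.136) and without control sample 3 (0.152) or 4 (0.0826). None of the other 7 pore subunits of voltage-gated calcium channels had enough UMIs to be fitted in any comparison.

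The question of the PPTx comparison is whether the excitability genes of β-like cells differed 2 days after the operation. None of the 7 members tested passed (edgeR), beside 0.271% of all 5904 genes tested, or 16 genes (0.152% higher, 0.119% lower). At an unadjusted p under 0.05 the count was 559 genes overall and 0 members. DESeq2 called 26 genes, and gave Abcc8 and Atp2a2, the members it adjusted, an adjusted p of 0.974 and 0.945. Abcc8 was at 320.1 ± 33.2 CPM in control and 349 ± 69.0 CPM in PPTx samples (SD, n = 4 each), with a log2 fold change of 0.03 (95% interval -0.29 to 0.36). Kcnj11 was at 43.5 ± 13.3 and 44.0 ± 8.71 CPM, with a log2 fold change of -0.20 (-0.68 to 0.28). Atp2a2 was at 766 ± 57.0 and 796 ± 173 CPM, with a log2 fold change of -0.05 (-0.36 to 0.25). The intervals of Abcc8 and Atp2a2 lie within 1.5-fold in either direction, so that larger differences of these 2 genes are outside their intervals.

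PPTx sample 4 stood apart for Abcc8 in β-like cells, at 246 CPM against 377 to 390 CPM in the other PPTx samples. Without it the log2 fold change was 0.13 (adjusted p = 0.847, edgeR). The calcium channel genes had wider intervals. Cacna1a had a log2 fold change of -0.27 (-0.80 to 0.27), Cacna1d one of -0.26 (-0.71 to 0.19) and Cacna1c one of -0.33 (-1.08 to 0.41). Control sample 1 had no Cacna1c UMI in 54 β-like cells, where 3 UMIs would be 15.3 CPM, and the other samples had 14.0 to 31.8 CPM. The farthest from 0 was Scn9a at -0.52 (-1.15 to 0.11, adjusted p = 0.618), with 35.7, 23.3, 18.1 and 17.2 CPM in control and 17.8, 19.8, 11.4 and 12.8 CPM in PPTx samples, and the 2 groups overlapped.

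Kcnk16 and Kcnk3 were too low for the fit. Kcnk16 was at 2.03 ± 2.72 CPM in control and 4.81 ± 2.82 CPM in PPTx samples (SD, n = 4 each, exact permutation p = 0.2, two-sided, in a test that cannot go below 0.0286). Kcnk3 was at 0, 4.24, 1.57 and 0 CPM in control and 0, 1.58, 2.08 and 3.65 CPM in PPTx samples, and the groups overlapped for both genes. Of the 7 log2 fold changes fitted, 6 were below 0, with a median of -0.26 beside -0.01 for all genes tested, and no test was made of that count. In thinned β-like cells, the share with an Atp2a2 UMI was 80.9 ± 4.61% in control and 82.8 ± 7.59% in PPTx samples (SD, n = 4 each), and that with an Abcc8 UMI 59.0 ± 5.17% and 57.0 ± 9.44%.

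**Figure D4:**
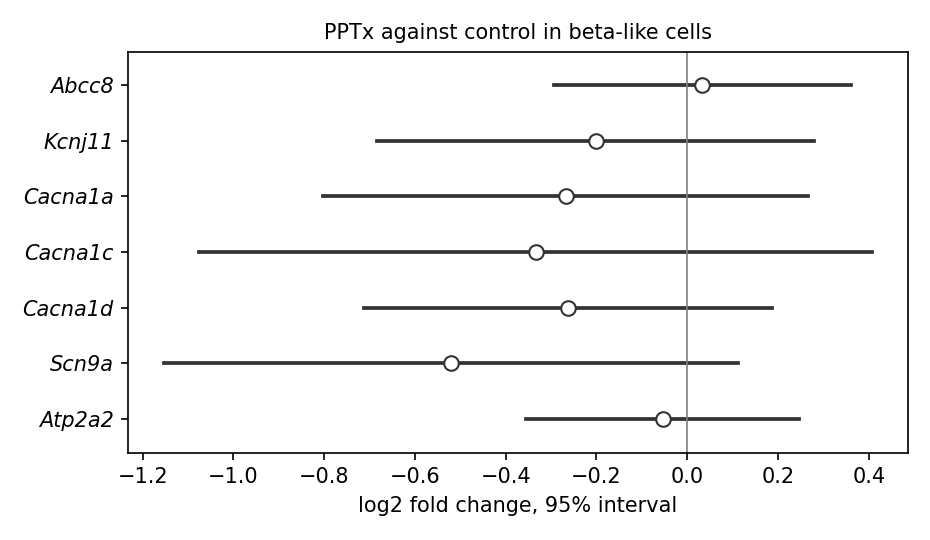
Log2 fold change of PPTx over control in β-like cells for the 7 members that could be fitted, over 4 control and 4 PPTx samples, with 95% intervals from edgeR and open circles where the adjusted p is 0.05 or above. All 7 circles are open and all intervals include 0, from Scn9a at -0.52 to Abcc8 at 0.03.

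Of the 108 other excitability genes, 33 could be fitted in β-like cells, and 1 passed, beside 0.271% of all 5904 genes tested. The median log2 fold change was -0.20 over the 33 genes and -0.0070 over all genes tested. Trpm5 fell from 140.1 ± 32.1 CPM in control to 70.3 ± 13.5 CPM in PPTx samples (SD, n = 4 each), and the groups did not overlap (log2 fold change -1.07, SE 0.19, adjusted p = 0.0102, edgeR). Its adjusted p was 0.073 without control sample 1 and 0.0802 without PPTx sample 1. Marker RNA of other cell types in the β-like sums moved with the groups. The 5 PP markers summed to 86.6 to 743 CPM in control and 891 to 2384 CPM in PPTx samples, and the 9 α markers to 1374 to 1850 CPM and 1912 to 2349 CPM. Irx2, of the α markers, had 5 UMIs in all β-like cells. Their part in the result for Trpm5 and the members was not tested. Over the 33 genes, 8 had an unadjusted p under 0.05, all lower in PPTx samples, beside 559 of 5904 genes in either direction.

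In PP-like cells, with 3 control and 4 PPTx samples, 633 genes could be fitted. None of the 3 members tested passed, beside 0% of all genes, and at an unadjusted p under 0.05 there were 35 genes and 0 members (edgeR), while DESeq2 also called 0 genes. Abcc8 was at 363 ± 106 CPM in control (n = 3) and 529.5 ± 80.9 CPM in PPTx samples (n = 4), with a log2 fold change of 0.51 (95% interval -0.03 to 1.05, adjusted p = 0.708). Kcnk3 had one of -0.62 (-1.61 to 0.37, adjusted p = 0.904) and Atp2a2 one of -0.09 (-0.78 to 0.59, adjusted p = 0.969). In α-like cells only 2 PPTx samples held 5 cells or more, so no test was made. In each of Atp2a2 (349 and 167 against 158 to 328 CPM) and Kcnk3 (242 and 95.3 against 94.5 to 197 CPM), 1 PPTx sum lay within the control range and 1 above it. Both Kcnj11 sums (0 and 23.8 CPM) lay below the controls (27.8 to 137 CPM), and the Abcc8 sums lay on either side of the control range (268 and 619 against 416 to 525 CPM). The 5 PP markers in these α-like sums came to 28586 and 69407 CPM in the PPTx samples and 10823 to 15887 CPM in the control samples, and their part in these levels was not tested.

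The difference of the PPTx effect between cell types was tested as an interaction. Between β-like and PP-like cells none of 6 members passed, beside 0.0228% of 4394 genes, and between β-like and α-like cells none of 6 passed, beside 0% of 4247 genes (edgeR). The 1 gene called in the former was Iapp, which encodes the β-cell peptide amylin, and is named here after its value was seen. For Abcc8 the interaction with PP-like cells was -0.49 (SE 0.27, adjusted p = 0.896), and for Kcnj11 that with α-like cells was 2.98 (SE 1.21, unadjusted p = 0.0138, adjusted p = 0.999), the only member with an unadjusted p under 0.05, on 1 Kcnj11 UMI in the PPTx α-like cells that entered. At an unadjusted p under 0.05 there were 249 and 177 genes. In simulated data these 2 tests found 23.5% and 4% of genes changed by a log2 of 1.5, so an absence of calls says little.

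β-cell replication after PPTx is a question of the study, and 41 β-like cells (10 control, 31 PPTx) held at least 2 UMIs of 10 replication markers. The test used the 6 samples with at least 3 such cells, 39 cells against 781. Atp2a2 was lower in the replicating cells, at 486 ± 274 CPM against 784 ± 139.9 CPM in the other β-like cells (SD, n = 6). It measured 610.1 and 302 CPM in replicating cells of control samples 3 and 4 and 444, 876, 599 and 87.2 CPM in those of the PPTx samples. The other β-like cells of these samples measured 718, 746, 634, 1022, 872 and 713 CPM in the same order, and were the higher in 6 of 6 samples. The log2 fold change was -0.79 (SE 0.22, adjusted p = 0.0116, edgeR), and without control sample 4 it was -0.70 (adjusted p = 0.0624). The median depth was 6638 UMIs in replicating and 6017 in other cells, and insulin took 53.2% and 58.6% of their UMIs.

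Abcc8 was at 244 ± 154 CPM against 337 ± 66.0 CPM, lower in 5 of 6 samples, and did not pass (log2 fold change -0.64, SE 0.23, adjusted p = 0.0879, edgeR). It passed without control sample 4 (-0.84, adjusted p = 0.0189), the 1 sample in which its replicating cells were the higher, and with no filter on low counts (-1.18, adjusted p = 0.00435), where the median of all genes moved by -0.53. PPTx sample 4 contributed 3 replicating cells with 0 UMIs of Abcc8 and 1 of Atp2a2. Cacna1d (-0.96, adjusted p = 0.353) and Kcnj11 (-0.38, adjusted p = 0.777) rested on 8 and 11 UMIs in the replicating cells. In all, 1 of 4 members tested passed, beside 5.25% of 2631 genes (3.61% higher, 1.63% lower), and the median log2 fold change of the 4 was -0.71 beside -0.10 for all genes. None of 16 other excitability genes passed (edgeR), with a median of -0.27.

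**Figure D5:**
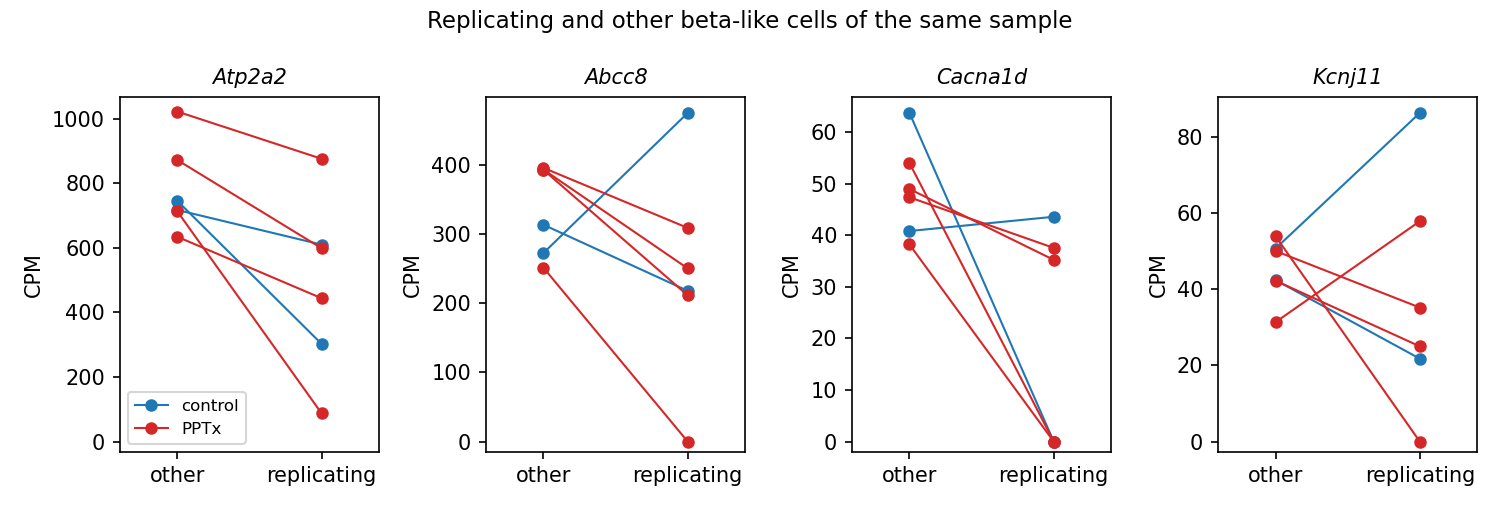
Level (CPM, linear axis, each panel with its own scale) of 4 members in replicating β-like cells and in the other β-like cells of the same sample, joined by a line, for 2 control (blue) and 4 PPTx (red) samples. All 6 lines of Atp2a2 fall, with means of 784 and 486 CPM, and 5 of 6 do for Abcc8.

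Genes with the most similar pattern were sought for the 3 members with the most UMIs, by Pearson's r of log2(CPM + 10) over 21 sums of sample and cell type and 3349 genes with at least 200 UMIs. The sums share libraries and fall into 3 types, so r is a description with no test. For Atp2a2 the closest were Prss53 (r = 0.932), Ucn3 (0.924), Slc2a2 (0.923), Spock2 (0.923) and Tmem215 (0.915). For Abcc8 they were Myl12a (0.804), Hnrnpd (0.760), Ash1l (0.750), Smad5 (0.750) and Gas5 (0.736), and for Kcnj11 Hnrnpul2 (0.773), and then Zfp706, Akap9, Sin3b and Xbp1, between 0.703 and 0.711. Neither KATP subunit was among the 5 closest genes of the other.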

How the data were processed

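UMI counts per gene and cell were deposited by the authors as 8 tables of 24421 genes, not normalized, from 3′ reads aligned to mm10. Droplet chemistry is named differently in the labels and the methods. The members and gene lists were chosen with earlier results of these data known. The cell filter (100 to 3000 genes, 100 to 20000 UMIs) left 1232 of 1240 cells, and no doublet caller was run. A cell took the type of the hormone with the most UMIs if it had at least 2 times the next, and mixed cells were left out. Counts were summed per sample and type (at least 5 cells, for replicating cells at least 3). The tests on sums were edgeR's quasi-likelihood tests (version 4.0.16, with R 4.3.3 and limma 3.58.1) after TMM scaling and filterByExpr. The sample was a block between types. Adjustment of p-values was by Benjamini-Hochberg over all genes fitted, including the hormones used for typing, at a threshold of 0.05. Hormones, and for replicating cells also the replication markers, were then left out of the counts of genes tested and called. Intervals of fold changes are 95%. Members below the filter were tested on CPM by exact two-sided permutation or sign-flip tests (scipy 1.17.1), with unadjusted p-values. Intervals and floors of counts cover counting error only. All 9 members are named, and of 108 other excitability genes the called ones with the lowest p, up to 10 per comparison. Some of these genes and markers are counted in their lists but not reported here by name. In simulated data, 91.5% of genes changed by a log2 of 1.5 were found in the PPTx comparison of β-like cells (5909 genes), 96% and 95% between β-like and α-like or PP-like cells (1988 and 2940 genes), 85% for PPTx in PP-like cells (638 genes) and 74% for replicating cells (2641 genes). Alternatives were DESeq2 1.42.0, RLE scaling, no filter on low counts, hormone genes left out, hormone margins of none or 5 times, no cell filter, cells thinned to 2700 UMIs, the replicate number as a block, and each replicate left out. Those of the interaction tests were chosen after seeing the data.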

Additional observations from a re-analysis of the deposited data

Results flagged for a closer look

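Of 35 groups of 4 samples examined, 2 held a sample far from the others of its group (Dixon's criterion, which chance meets in about 1 in 20 groups). Abcc8 in β-like cells of PPTx sample 4 was at 246 CPM, while the other PPTx samples lay between 377 and 390 CPM. The β-like cells of this sample had a median of 3660 UMIs, against 5163 to 9566 UMIs in the other PPTx samples. Control sample 1 was shallower still, with 3468 UMIs, and had Abcc8 at 352 CPM, and the part of depth was not tested. Cacna1d in α-like cells of control sample 1 was at 0 CPM, while the other control samples lay between 52.5 and 62.5 CPM. That sum held 6 cells, and 3 UMIs in it would be 197 CPM, so the value was not distinguishable from the others at this depth.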

How the results depend on the processing

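Over 52 values of members in single comparisons and their 720 repeats under the alternatives, 705 kept their side of the threshold, 12 lost the call, 3 gained it and no called value changed sign. Of the 705, 75 changed sign while not called, so no direction holds for those members, such as Abcc8 in β-like against α-like cells (-0.22 to 0.38) and under PPTx in β-like cells (-0.04 to 0.13). For the named excitability genes outside the members, 254 of 264 repeats kept sign and call and 10 lost the call. No filter on low counts moved the median log2 fold change of all genes by 0.42 (β-like against α-like), 0.39 (against PP-like) and -0.53 (replicating), and DESeq2 and RLE scaling moved the first by 0.12 and 0.11. Why the counts of genes called moved was not tested. For PPTx in β-like cells, 16 genes became 26 with DESeq2 and 88 with no filter, and 1 to 19 with a replicate left out (1 without control sample 1 or PPTx sample 1, 2 without control sample 2, 9 without control sample 4). For PPTx in PP-like cells, 0 became 1 with no filter, with hormone genes left out or with a margin of 5 times, and 0 to 1 with a replicate left out. Against α-like cells, 768 became 1267 with no filter, 473 in thinned cells and 444 to 866 with a replicate left out (444 without control sample 3). Against PP-like cells, 915 became 1545 with no filter, 354 in thinned cells and 669 to 899 with a replicate left out. For replicating cells, 138 became 90 with DESeq2, 506 with no filter, 42 in thinned cells and 94 to 160 with a replicate left out. The interaction with PP-like cells went from 1 to 0 with DESeq2, no margin or thinned cells, to 2 with no filter or a margin of 5 times, and to 0 to 1 with a replicate left out. That with α-like cells went from 0 to 1 with RLE scaling or no margin, and to 0 to 1 with a replicate left out. With the replicate number as a block, the PPTx comparison called 32 genes in β-like and 3 in PP-like cells and none of the members tested. The labels do not say what a shared number stands for. Deviations of same-numbered samples correlated by 0.050, 0.037, 0.096 and 0.146 across 5909 genes, and 7 of 8 samples correlated best with their own number, control sample 2 being the exception (0.063 with PPTx sample 3). Depth limits Kcnk16 in all types and most members in δ-like cells.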

Other observations

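Cells outside the 3 compared types also held transcripts of the members. The 22 cells of mixed hormones had Atp2a2 at 545 CPM (95% counting interval 413 to 706) and Kcnk3 at 124 CPM (66.2 to 213), and Abcc8 at 497 CPM (371 to 652). The Atp2a2 level lay between those of β-like cells (795 CPM) and of α-like and PP-like cells (195 and 206 CPM), and the Kcnk3 level was near that of α-like cells (128 CPM). The 13 δ-like cells held 12 UMIs of Atp2a2 (291 CPM, 150.3 to 508), 2 of Scn9a and 1 each of Cacna1c and Kcnk3. The 1 ε-like cell held 4 UMIs of Abcc8 and 1 each of Atp2a2, Cacna1c and Kcnk3 among 7942 UMIs.

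The pooled α to PP ratio was 0.985 for Abcc8 (95% counting interval 0.830 to 1.17) and 1.04 for Kcnj11 (0.700 to 1.54). It was 7.58 for Cacna1c (2.54 to 30.5), 2.70 for Cacna1a (1.12 to 6.92) and 2.00 for Cacna1d (1.11 to 3.65). These ratios rest on 4 UMIs of Cacna1c, 9 of Cacna1a and 22 of Cacna1d in PP-like cells, on pools of unlike make-up (95 control and 19 PPTx α-like cells, 32 and 98 PP-like cells), and neither they nor their differences between genes were tested over samples.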
